A study of Mus musculus with 2 samples.

Results

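The proteins of the cytosolic ribosome were followed in intestinal RNA labelled gut-specific GDE5 (Gpcpd1) deficient and wild type. The members are all gene probes whose symbol has the form Rpl or Rps followed by a number, with an optional last letter, together with Rplp0, Rplp1, Rplp2 and Rpsa. This gave 144 probes of 80 genes, out of 41174 gene probes with 26582 gene names on the array. Of these, 83 probes of 48 genes belong to the large subunit and 61 probes of 32 genes to the small subunit. The rule uses gene symbols alone, but the members were chosen with earlier results of these data known.

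The ribosome translates messenger RNA into protein. Its small subunit reads the codons, and its large subunit joins the amino acids and guides the new chain out through a tunnel. Most of its proteins are needed in equal number, and their messenger RNAs start with a terminal oligopyrimidine tract, through which the growth kinase mTOR and the binding protein LARP1 set how well they are translated. In the gut, the dividing cells of the crypts make ribosomes to feed the constant renewal of the epithelium, and several of these genes serve as reference genes in PCR.

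The animals were male C57BL/6 mice, 20 weeks old, on a normal diet, and the groups were gut-specific GDE5 (Gpcpd1) deficient mice and wild-type mice. GDE5, the product of Gpcpd1, releases choline from glycerophosphocholine. The driver of the gut-specific deletion, the deleted part of the gene and the segment of intestine are not given in the sources used here. Total RNA was compared on 2 dual-colour arrays of a dye-swap design. Knockout RNA carried Cy3 and wild-type RNA Cy5 in replicate 1, and knockout RNA carried Cy5 and wild-type RNA Cy3 in replicate 2. The study's text speaks of 5 mice, but does not say whether animals were pooled or whether both arrays used the same RNA, so the spread between the arrays may be technical. Both arrays lay on the same slide, and a slide effect could not be tested.

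Values are processed intensities in the scanner's arbitrary units, and log2 ratios of knockout over wild type on the same array, above 0 where the knockout RNA was brighter. Each array held 43379 spots of gene probes. Spots well above background made up 75.3% and 70.3% of them for knockout RNA in replicates 1 and 2, and 69.3% and 76.1% for wild-type RNA. Gpcpd1 itself went against the label at 3 of its 4 probes, and the mean log2 ratios of the 4 were 0.45 ± 0.16, 0.82 ± 0.07, -0.12 ± 0.25 and 0.63 ± 0.85 (SD, n = 2 arrays), and limma called none of them. A probe outside the deleted part would not check the label. The groups are therefore written as RNA labelled knockout and RNA labelled wild type, and every direction below rests on these labels. Markers of the intestine were well measured, such as villin (Vil1), with intensities of 149389 and 136275 in RNA labelled knockout, against 130622 and 149370 in RNA labelled wild type.

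Of the 144 probes, 139 probes of 79 genes were tested, since on both arrays either the knockout or the wild-type channel was well above background. The 5 others were both Rpl39l probes and 1 probe each of Rps19, Rps2 and Rps25. Among the 139, 136 were above background for both genotypes, 1 (Rpl3l) only for RNA labelled wild type, and 2 only for RNA labelled knockout. The symbols were the current ones for the 117 probes whose accession is in RefSeq. The median intensity of the tested members was 52492, against 378 over all 29065 tested probes, and 107 of the 139 lay in the brightest 10% of tested probes, those at 6962 or more. No member spot was saturated.

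The sequences of 5 probes, each 60 bases long, show what these measurements rest on, and are given because the text returns to their values. Positions are those of the array design on mm9. The Rpl36a probe lies at chrX:131122046-131122105 on the plus strand, the Rps26 probe at chr10:128062363-128063147 on the minus strand and the Rps21 probe at chr2:179992705-179992936 on the plus strand. For the Rps26 and Rps21 probes the span is longer than the probe. The Rplp0 probe, printed in 10 spots per array, has no position in the design file, and the gene is on chromosome 5.
Rplp0 A_51_P344103: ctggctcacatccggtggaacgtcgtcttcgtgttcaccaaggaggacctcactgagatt
Rpl36a A_52_P481880: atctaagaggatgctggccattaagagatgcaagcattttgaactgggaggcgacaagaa
Rps26 A_51_P302675: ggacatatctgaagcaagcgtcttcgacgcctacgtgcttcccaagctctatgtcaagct
Rps21 A_51_P489959: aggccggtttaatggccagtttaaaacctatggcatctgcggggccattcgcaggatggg
The Rps29 probe is shown because the design places it at chr2:172335024-172335083 on the minus strand, whereas RefSeq has the gene on chromosome 12. RefSeq lists 318 genes named as pseudogenes of Rpl and Rps genes, and cross-hybridization between near-identical copies cannot be told apart from the gene itself on this array.
Rps29 A_52_P158090: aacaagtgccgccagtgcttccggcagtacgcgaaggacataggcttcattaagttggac

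By the scanner's ratios, ribosomal protein transcripts differed little between RNA labelled knockout and RNA labelled wild type. The median log2 ratio was 0.0060 over the 139 probes, against -0.021 over all tested probes and -0.021 over the brightest 10%. The large subunit stood at -0.0054, with 0.0016 in replicate 1 and -0.0028 in replicate 2. The small subunit stood at 0.035, with 0.032 in replicate 1 and 0.0031 in replicate 2. No member passed limma at an adjusted p of 0.05, against 0.275% of all tested probes, and 1 member had an unadjusted p under 0.05, or 0.719%, against 5.16% of all tested probes. These p-values are from limma with Benjamini-Hochberg adjustment over all tested probes. With normexp and loess in place of the scanner's processing, the medians were 0.13 in the large and 0.16 in the small subunit. The brightest 10% then stood at 0.034.

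The ratios lay close together. The mean log2 ratio was within 0.1 of 0 for 108 of the 139 members, or 77.7%, against 65.5% in the brightest 10% and 49.4% of all tested probes. The middle 50% of the mean ratios spanned 0.11 in the members, 0.12 in the brightest 10% and 0.20 in all tested probes. The lowest was -0.40, and no member reached 1.5-fold, against 2.18% of all tested probes. The scanner software's own p was under 0.05 on both arrays in the same direction for 0 members, against 1.42% of all tested probes. With 2 arrays, the 95% confidence interval of a member's mean ratio reached a median of 0.42 to each side, which is 1.33-fold. That interval is for a single probe without adjustment over all tested probes, and a call needed a larger ratio. The B cell marker Fcmr, with a mean of 0.93, was not called, at an adjusted p of 0.078 in limma. Smaller differences of single genes, and some larger ones, were thus not detectable at this number of arrays.

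**Figure D1:**
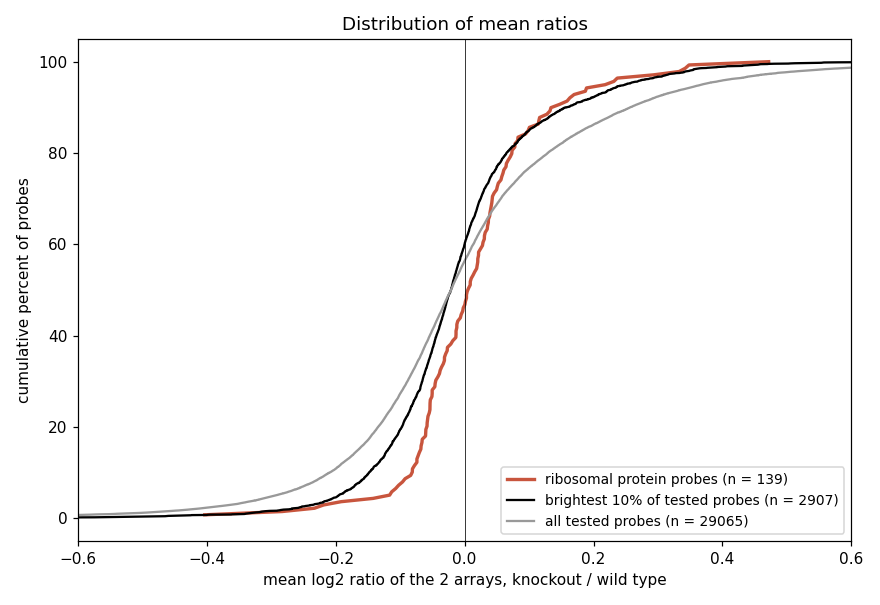
Cumulative percent of probes (vertical axis) by mean log2 ratio of knockout over wild type (horizontal axis) for the ribosomal protein probes, the brightest 10% and all tested probes. The curve of the 139 ribosomal protein probes is the steepest around 0, with 77.7% of them within 0.1 of 0.

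The arrays mostly did not give the members the same direction. On both arrays, 21 members were higher in RNA labelled knockout, or 15.1%, against 20.7% of all tested probes and 16.9% of the brightest 10%. On both arrays, 18 members were lower in RNA labelled knockout, or 12.9%, against 21.5% and 18.5%. The other 100, or 71.9%, had opposite signs, against 57.8% and 64.5%. Among these, Cy5 was brighter on both arrays for 49 probes and Cy3 for 51. Both intensities of RNA labelled knockout exceeded both of RNA labelled wild type for 15 members, or 10.8%, against 12.6% of all tested probes, and lay below both for 12, or 8.63%, against 17.0%.

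The dye part of the ratios was wider than the mean ratio over the members. The dye part is the difference of the 2 ratios divided by 2. Its SD over the members was 0.18, against 0.11 for the mean ratio. These SDs were 0.174 and 0.149 in the brightest 10%, and 0.227 and 0.225 over all tested probes. The arrays may differ in more than dye orientation, so the dye part also holds any other difference between them. Between the arrays, the members' ratios had a Pearson's r of -0.45 and a Spearman's rho of -0.47 over the 139 probes, which share the same arrays, against -0.16 and -0.32 over the brightest 10% and -0.0089 and -0.15 over all tested probes. The dye part also ran against the GC content of the probe, at a Pearson's r of -0.38 and a Spearman's rho of -0.35 over the 139 probes. Correlations with GC content were not computed for other probes, so this trend is not shown to be particular to the members. For the mean ratio these values were 0.0017 and -0.017.

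**Figure D2:**
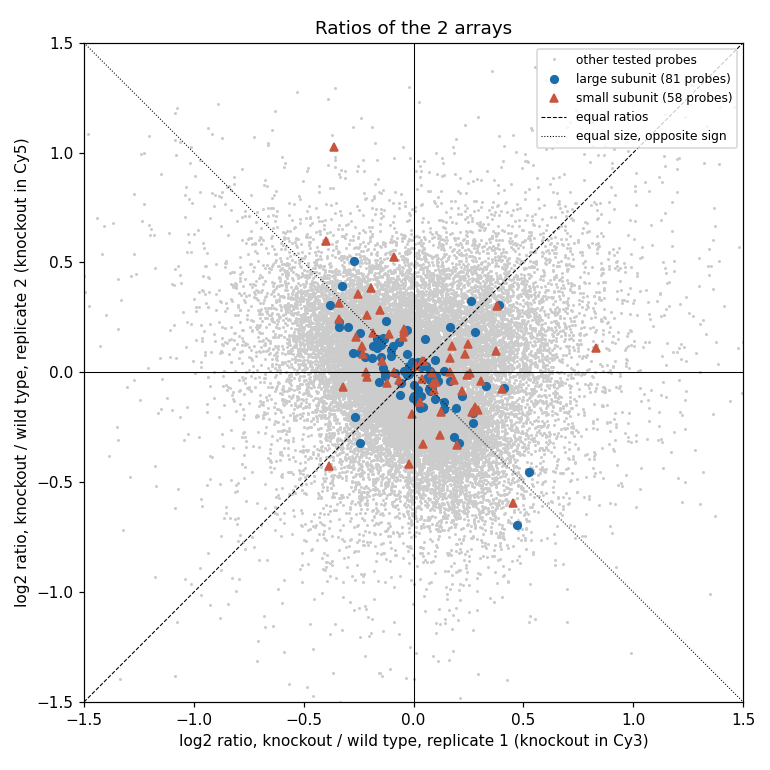
Log2 ratios of knockout over wild type in replicate 1 (horizontal axis) and replicate 2 (vertical axis), 1 point a tested probe, with large-subunit probes as circles, small-subunit probes as triangles and all others in grey. Members spread along the line of equal size and opposite sign, with a Pearson's r of -0.45, and the axes end at 1.5, beyond which only other probes lie.

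In the large subunit, 11 of 81 probes, or 13.6%, were higher and 11, or 13.6%, lower on both arrays in RNA labelled knockout. Over all tested probes these shares were 20.7% and 21.5%. By the brightest tested probe of each gene, 7 of 47 genes were higher, 4 were lower and 36 had opposite signs. Over all genes, 20.2% were higher and 21.1% lower by that rule. The most separated large-subunit gene was Rpl12, a protein at the base of the stalk that recruits elongation factors. Its intensities were 116754 and 136530 in RNA labelled knockout in replicates 1 and 2, against 97385 and 108950 in RNA labelled wild type. Both values of RNA labelled knockout were above both others, and the log2 ratios were 0.26 and 0.33, a mean of 0.29 ± 0.05 (SD, n = 2 arrays) or 1.23-fold. The adjusted p was 1.00 in limma, and the mean was 0.58 with normexp and loess.

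Rpl36a, a small protein of the large subunit near the exit site of transfer RNA, was the next. The probe printed above had 64586 and 66232 in RNA labelled knockout, against 53176 and 58356 in RNA labelled wild type, with ratios of 0.28 and 0.18. A further probe of the gene gave a mean of 0.35 ± 0.06 (SD, n = 2 arrays). The third, which shares 40 bases with that one, gave 0.01 ± 0.11 (SD, n = 2 arrays), so probes of the same gene differed by more than the mean of 0.23 of the printed probe. Rpl26, which is known to bind the messenger RNA of p53, had 67815 and 69526 in RNA labelled knockout, against 63348 and 66815 in RNA labelled wild type. The groups did not overlap, but the mean ratio was 0.08 ± 0.03 (SD, n = 2 arrays).

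Rpl17, which lines the exit of the tunnel, had ratios of 0.03 and 0.02. Rpl13, Rpl10a and Rpl41 were lower in RNA labelled knockout on both arrays by the brightest probe. Rpl13 had 98810 and 102141 in RNA labelled knockout, against 102840 and 105752 in RNA labelled wild type, a mean ratio of -0.05 ± 0.01 (SD, n = 2 arrays). Rpl10a had a mean of -0.07 ± 0.08 and Rpl41, the shortest of the ribosomal proteins, of -0.02 ± 0.01 (SD, n = 2 arrays each). Intensities of RNA labelled knockout were below those of RNA labelled wild type without overlap for Rpl13 and Rpl10a, and overlapped for Rpl41.

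The proteins of the P stalk, which contacts the elongation factors, did not move together. Rplp0, which anchors the stalk, had 177636 and 167858 in RNA labelled knockout, against 185185 and 180155 in RNA labelled wild type, a mean ratio of -0.08 ± 0.03 (SD, n = 2 arrays) without overlap. Its 10-spot probe, printed above, had 17321 and 17770 in RNA labelled knockout, against 17380 and 19129 in RNA labelled wild type, with ratios of -0.00055 and -0.12. The SD over its 10 spots was 0.14 in replicate 1 and 0.19 in replicate 2. Rplp1 had 172686 and 220499 in RNA labelled knockout, against 216622 and 168170 in RNA labelled wild type. Here Cy5 was brighter on both arrays, and the ratios of -0.33 and 0.39 gave a mean of 0.03 ± 0.51 (SD, n = 2 arrays). Rplp2, the partner of Rplp1 in the stalk, had ratios of 0.06 and 0.03.

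**Figure D3:**
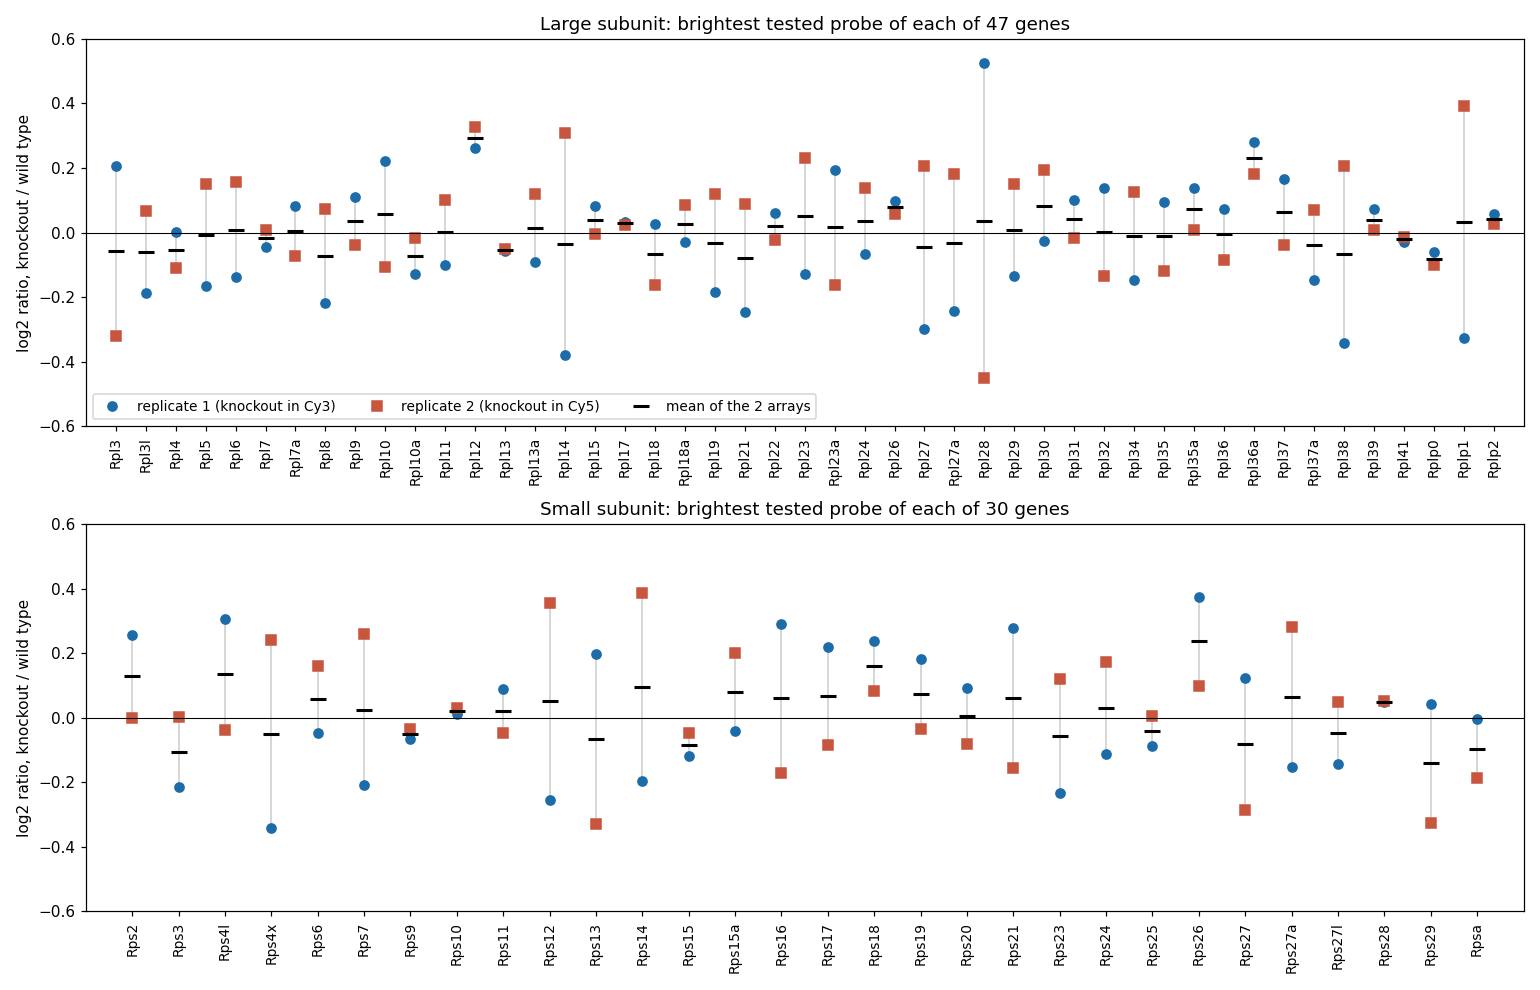
Log2 ratio of knockout over wild type (vertical axis) of the brightest tested probe of each gene, for replicate 1 as circles, replicate 2 as squares and their mean as a black bar, with 47 large-subunit genes above and 30 small-subunit genes below. For most genes the circle and the square lie on opposite sides of 0, as for Rplp1, while Rpl12, Rpl36a and Rps26 have both above it.

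In the small subunit, 10 of 58 probes, or 17.2%, were higher and 7, or 12.1%, lower on both arrays in RNA labelled knockout. Over all tested probes these shares were 20.7% and 21.5%. By the brightest probe, 4 of 32 genes were higher, 3 were lower and 25 had opposite signs. Over all genes, 20.2% were higher and 21.1% lower by that rule. Rps26, which contacts the messenger RNA at its exit, had 46683 and 49648 in RNA labelled knockout, against 36006 and 46356 in RNA labelled wild type. The groups did not overlap, and the ratios of 0.37 and 0.10 gave a mean of 0.24 ± 0.19 (SD, n = 2 arrays) or 1.18-fold, and 0.44 with normexp and loess. In replicate 1 the wild-type channel stood below the other 3 values. The other Rps26 probe, with a transcript accession from Ensembl, had 57.4 and 73.3 in RNA labelled knockout, against 50.8 and 67.5 in RNA labelled wild type, a mean ratio of 0.15 ± 0.04 (SD, n = 2 arrays).

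Rps18, a protein of the head of the small subunit, had 215985 and 226303 in RNA labelled knockout, against 183383 and 213835 in RNA labelled wild type, without overlap, a mean ratio of 0.16 ± 0.11 (SD, n = 2 arrays). Its second probe in order of brightness had ratios of -0.26 and 0.16, of opposite sign. By the brightest probe, Rps28 had a mean of 0.050 ± 0.0017 and Rps10 of 0.02 ± 0.01 (SD, n = 2 arrays each). Both arrays were close for these probes, and both means were within 0.1 of 0. The next Rps28 probes in brightness had opposite signs, with ratios of -0.04 and 0.18, and of 0.10 and -0.04. The dimmest was lower on both arrays, with a mean of -0.12.

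Rps15, whose tail reaches the decoding site, had 17969 and 17344 in RNA labelled knockout, against 19534 and 17920 in RNA labelled wild type, a mean ratio of -0.08 ± 0.05 (SD, n = 2 arrays), and the groups overlapped. Rps9 had a mean of -0.05 ± 0.02 (SD, n = 2 arrays). Rpsa, known also as the laminin receptor, had 18543 and 17041 in RNA labelled knockout, against 18610 and 19410 in RNA labelled wild type, without overlap. Its ratios of -0.0052 and -0.19 gave a mean of -0.10 ± 0.13, and its dimmer probe had a mean of -0.22 ± 0.28 (SD, n = 2 arrays each). Rps6, the target of the kinase S6K downstream of mTOR, had ratios of -0.05 and 0.16.

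Of the members often used as reference genes, Rplp0 and Rps18 are given above, and the others had opposite signs on the arrays. Rpl13a had 80663 and 84451 in RNA labelled knockout, against 85962 and 77818 in RNA labelled wild type, a mean ratio of 0.01 ± 0.15 (SD, n = 2 arrays). Rpl19 had 89632 and 98885 in RNA labelled knockout, against 101836 and 91119 in RNA labelled wild type, a mean of -0.03 ± 0.21 (SD, n = 2 arrays). In both genes the intensities of the groups overlapped. Rpl32 had a mean of 0.0012 ± 0.19 and Rpl4 of -0.05 ± 0.08 (SD, n = 2 arrays each). Rps29 had 160634 and 123755 in RNA labelled knockout, against 155920 and 155234 in RNA labelled wild type, a mean of -0.14 ± 0.26 (SD, n = 2 arrays). The knockout value of replicate 2 stood below the other 3.

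Among the paralogs, Rpl3l is the form of Rpl3 known from striated muscle. It had 19.0 and 11.8 in RNA labelled knockout, where it was not well above background on both arrays, against 21.7 and 11.3 in RNA labelled wild type, so no fold is given. Rpl3 itself had ratios of 0.21 and -0.32. Rpl39l, a form of the tunnel protein Rpl39 known from the testis, did not pass that background filter, while Rpl39 had ratios of 0.07 and 0.0078. The Rps27 probe is placed by the design on chromosome 9, whereas RefSeq has the gene on chromosome 3. Rps27 and Rps27l had ratios of opposite sign, with means of -0.08 ± 0.29 and -0.05 ± 0.14 (SD, n = 2 arrays each). Rps4x had a mean of -0.05 ± 0.41 and Rps4l of 0.13 ± 0.24 (SD, n = 2 arrays each), and the Rps4l ratios, over the unmarked of 10 spots, were 0.31 and -0.04. Rpl10, Rpl22 and Rpl7 had means of 0.06 ± 0.23, 0.02 ± 0.06 and -0.02 ± 0.04 (SD, n = 2 arrays each).

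Probes of the same gene often disagreed in sign. Of 43 genes with 2 or more tested probes, 25 had probes with mean ratios on both sides of 0. The distance between the lowest and highest probe of a gene had a median of 0.10 and ran from 0.0049 to 0.43, and was within 0.2 for 32 genes.

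The lowest member was 1 of the Rps24 probes, with an Ensembl transcript accession. It had 1116 and 936 in RNA labelled knockout, against 1456 and 1256 in RNA labelled wild type, without overlap, a mean ratio of -0.40 ± 0.03 (SD, n = 2 arrays) and an adjusted p of 0.990 in limma. The other Rps24 probes lay near 0. In Rps21, a pair of probes that share 42 bases gave -0.01 ± 0.46 and 0.34 ± 0.05 (SD, n = 2 arrays each), and the probe printed above, with 89780 and 79542 in RNA labelled knockout, against 74080 and 88625 in RNA labelled wild type, gave 0.06 ± 0.31 (SD, n = 2 arrays). Overlapping probes thus differed by over 0.2 in both Rpl36a and Rps21, whereas a pair of Rpl36 probes that overlap over 39 bases with 2 mismatches differed by 0.021.

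**Figure D4:**
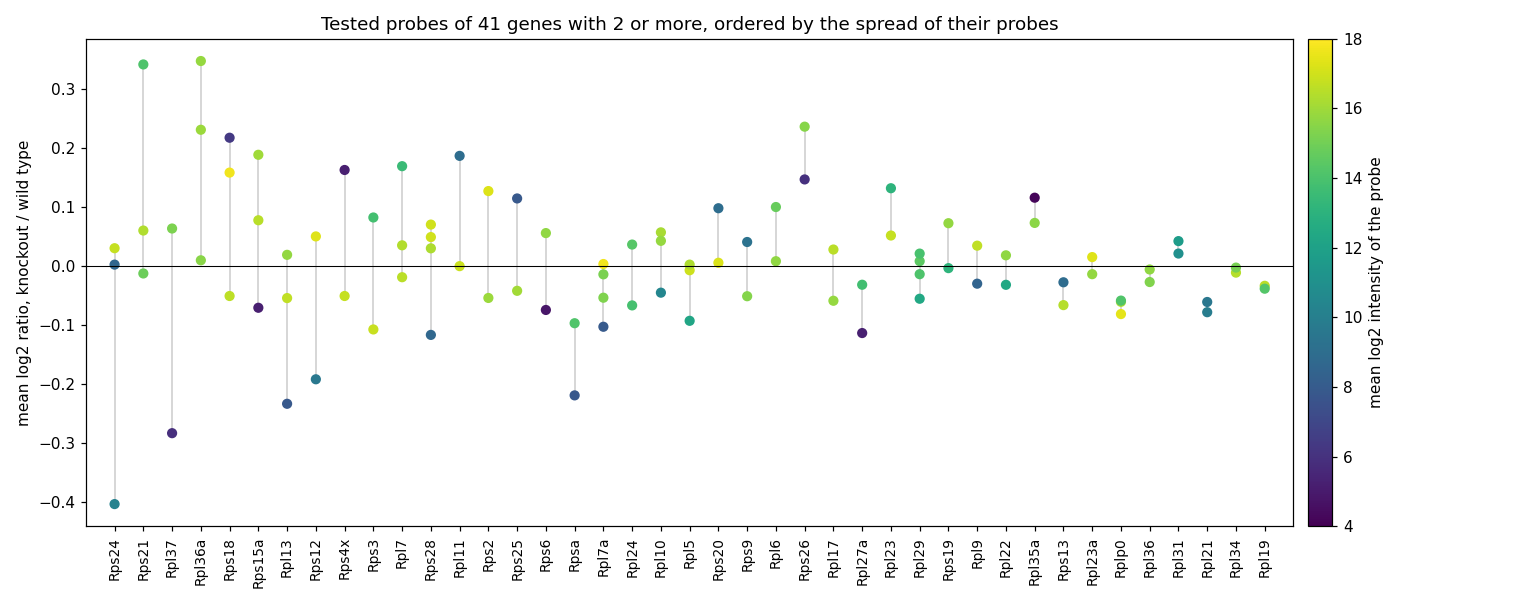
Mean log2 ratio of knockout over wild type (vertical axis) of every tested probe of 41 genes with 2 or more, in the order of the spread of their probes and coloured by mean log2 intensity. The spread is largest for Rps24, at 0.43, and the far probe is often a dim one, as for Rpl37 and Rpl13.

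Counts are given here by brightness and by accession. Over all tested probes, 20.7% were higher and 21.5% lower on both arrays. In the brightest 10%, these shares were 16.9% and 18.5%. The 32 members below the brightest 10% had a median ratio of -0.04, with 3 higher and 8 lower on both arrays, whereas the 107 members within it had a median of 0.02, with 18 higher and 10 lower. The 24 probes whose accession is not from RefSeq had 3 higher and 7 lower with a median of 0.012, and the 115 with a RefSeq accession 18 higher and 11 lower with a median of 0.0060. These differences were not tested, since probes of the same arrays are not replicates.

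The promoters of these genes share sequence features. Of the 80 genes, 59 matched a RefSeq promoter of GRCm38.p6, in 71 promoters. A run of 6 or more C or T within 30 bases of the start, on the sense strand, was in 74.6% of the 71, against 49.6% of all 32851 promoters. The letters CCGGAAG, a core of ETS factor sites, were on either strand of 36.6%, from 250 bases before the start to 50 after it, against 8.86% of all, and a run of C or T may overlap their reverse. TATAAA lay on the sense strand of the 50 bases before the start in 0 of 71, against 2.63% of all. At so low a share, 0 of 71 does not set these promoters apart. Only these exact letters were counted, and related runs, such as TATATAAG in the Rps26 promoter below, were not. These motifs were chosen after the sequences had been seen. A match is a description of the letters, and expression was not tested against it. Sequences are shown from 40 bases before the start to 20 bases after it. Capitals mark the longest run of C or T within 30 bases of the start. Rpl12 is at chr2:32961672-32961731 on the plus strand and Rps26 at chr10:128626487-128626546 on the minus strand. They are the genes with the highest mean of the brightest probe in each subunit. The reference gene Rpl4 is at chr9:64173347-64173406 on the plus strand.
Rpl12: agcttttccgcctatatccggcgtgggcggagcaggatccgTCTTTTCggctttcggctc
Rps26: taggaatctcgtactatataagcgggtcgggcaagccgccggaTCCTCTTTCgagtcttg
Rpl4: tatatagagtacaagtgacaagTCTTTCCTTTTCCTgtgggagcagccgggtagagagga

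In the scanner's ratios, other genes of the translation machinery had medians close to those of the ribosomal proteins, by the brightest tested probe of each gene. The background by this rule was 20.2% higher and 21.1% lower on both arrays in RNA labelled knockout, over 18994 genes. Limma called 0.2% of these in a separate fit of 1 probe a gene. Calls in the lists are from the main fit over all 29065 tested probes, which called 0.275%. Of 7 ribosomal protein genes outside the name pattern, 2 were higher and 1 lower, with a median of -0.02, and of 0.19 with normexp and loess. In this list Fau had ratios of 0.09 and -0.13, and Rack1, a scaffold on the small subunit, was lower on both, with a mean of -0.11. Rps3a1 was higher on both, with ratios of 0.55 and 0.06 and a mean of 0.31. Elongation factors had a median of 0.03 over 6 genes, and of 0.20 with normexp and loess. Of these, 2 were higher, Eef2 and Eef1g, and 1 was lower. Eef2 had ratios of 0.59 and 0.03, a mean of 0.31 ± 0.40 (SD, n = 2 arrays). Eef1g had ratios of 0.50 and 0.09, a mean of 0.30 ± 0.29 (SD, n = 2 arrays), so both means came mostly from replicate 1. The 17 other transcripts known for a terminal pyrimidine tract had a median of -0.02, and of 0.08 with normexp and loess. Of 29 initiation factors, 3 were higher and 7 lower, with a median of -0.05, and of -0.04 with normexp and loess. Mitochondrial ribosomal proteins, 76 genes, had 7 higher, 13 lower and a median of -0.06, and of -0.03 with normexp and loess. By the latter values the large subunit stood at 0.13 and the small subunit at 0.16, so these 2 lists were not close to them.

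Genes of ribosome assembly were more often lower. Of 54 such genes, 23 were lower on both arrays in RNA labelled knockout, 6 were higher and 25 had opposite signs. Their median of -0.09 came from -0.07 on the first array and -0.06 on the second, and was -0.10 with normexp and loess. Limma called none of the 54. Nop56, a core protein of box C/D particles, had 12516 and 11812 in RNA labelled knockout, against 13183 and 13158 in RNA labelled wild type, a mean ratio of -0.12. Rrs1, which brings the 5S particle into the large subunit, had a mean of -0.24 and Tsr1, a factor of small-subunit maturation, of -0.21. Against these, Nolc1, a nucleolar chaperone, had a mean of 0.49. The 15 genes of RNA polymerase I had a median of -0.02, and the 18 genes of growth control, Myc and Mtor among them, of -0.01, with 2 higher and 0 lower.

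**Figure D5:**
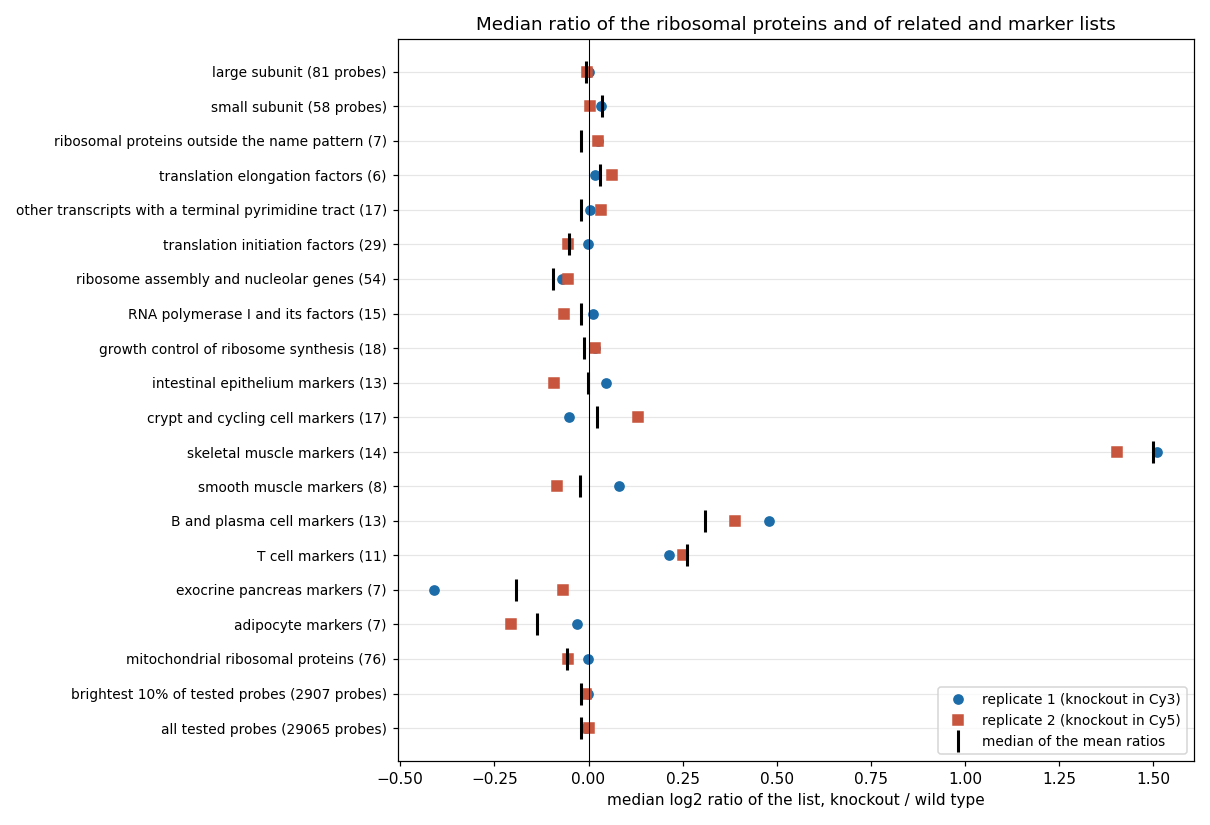
Median log2 ratio of knockout over wild type (horizontal axis) of both subunits, of each related and marker list and of all tested probes, for replicate 1 as circles, replicate 2 as squares and of the mean ratios as black bars, with the number of genes or probes in brackets. Both subunits lie within 0.04 of 0 on each array, while skeletal muscle markers lie at 1.51 and 1.40.

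Cell type markers gave medians both near 0 and far from it. Of 14 skeletal muscle markers, 12 were higher in RNA labelled knockout on both arrays and 11 were called by limma, with medians of 1.51 in replicate 1 and 1.40 in replicate 2. With normexp and loess the median of this list was 0.27 and limma called 0 of all 29065 probes, so that none of the 11 calls held. Their summed intensities were 6397 and 6197 in RNA labelled knockout, against 3171 and 3142 in RNA labelled wild type. Of 13 B and plasma cell markers, 9 were higher and none was called, with a median of 0.31 and sums of 98188 and 110078 in RNA labelled knockout, against 83721 and 83639 in RNA labelled wild type. Of 11 T cell markers, 6 were higher and none was called, with a median of 0.26. Intestinal epithelium markers had a median of -0.00067 over 13 genes, with 3 higher, 2 lower and 1 called, and crypt and cycling cell markers a median of 0.02 over 17. Smooth muscle markers had a median of -0.02 over 8 genes, exocrine pancreas markers of -0.19 over 7 and adipocyte markers of -0.14 over 7. In bulk RNA, fewer cells of a type and less RNA per cell cannot be told apart, and the part of these cells in the members' ratios was not tested.

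The level of the members as a group depended on how the dyes were normalized. With normexp and loess in place of the scanner's processing, the median was 0.13 in the large and 0.16 in the small subunit, against 0.034 in the brightest 10% and -0.021 over all tested probes. That shift came from replicate 2, with medians of 0.21 in the large and 0.19 in the small subunit, whereas replicate 1 had -0.026 and 0.0013. By these values 35 members were higher and 14 lower on both arrays, or 25.2% and 10.1%, against 13.4% and 27.3% of all tested probes. Limma called 0 of all 29065 probes by these values, so that 0 calls among the members says nothing about them. The brightest probes of Rplp0, Rpl13, Rpl10a, Rpl41, Rps9 and Rpsa, lower in RNA labelled knockout on both arrays in the scanner's ratios, had mean ratios above 0 by these values. Only Rplp0 and Rps9 of these 6 were then higher on both arrays, and the others had opposite signs. Without the scanner's intensity-dependent dye step, the means were -0.052 for Rpl26, -0.037 for Rps18, -0.073 for Rps28 and 8.4e-05 for Rps9.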

How the data were processed

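Per the labels' protocols, QIAzol was used to extract total RNA of intestine, and T7-primed cRNA was made with Cy3 or Cy5 dCTP. The authors' deposited scanner files, on array design 014868, hold processed intensity values that the software had background-subtracted, detrended over the surface and dye-normalized, per the file headers. They also hold the log10 ratio of Cy5 over Cy3 and the software's p-value of each spot, likewise deposited. The headers name Feature Extraction 11.5.1.1, whereas the submitters' processing notes name 9.5. The deposited value table repeats these log10 ratios in rounded form, with a column median of 0, a largest difference of 5e-04 and 0 columns beyond those of the arrays.

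Log10 ratios were converted to log2 and turned to knockout over wild type. Spots marked as outliers were left out, 133 and 193 per array and among the members 2 on each, and spots of a probe were averaged. Limma 3.58.1 in R 4.3.3 tested the mean ratio against 0 over 29065 probes, with lmFit and eBayes. The fit had 1 residual degree of freedom and a prior of 14.6, and p-values were adjusted by Benjamini-Hochberg, with calls at 0.05. A two-sided exact sign permutation of 2 arrays cannot go below 0.5. The test was tried on simulated data. Tables and plots used Python 3.11.15, pandas 2.3.3 and matplotlib 3.10.9.

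The members, the lists and the scanner's ratio as the main value were chosen with earlier results of these data known, among them that normexp with an offset of 50 and loess left the turned arrays correlated at -0.37 over all tested probes. Named genes are, in each subunit, up to 5 with the largest smaller ratio in each direction by the brightest probe, plus PCR reference genes, stalk proteins, Rpsa and paralogs. Rpl36, Rpl37, Rps6, Rps21 and Rps24, the dimmer probes, the genes named from related lists and the printed sequences were chosen after their values were seen. RefSeq of GRCm38.p6 gave names and promoters, and no genome was used. Values of 2 small-subunit genes are not reported here by name. Alternatives changed the normalization, centring, background filter, marked spots, probes per gene and arrays.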

Additional observations from a re-analysis of the deposited data

How the results depend on the processing

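Limma called 0 of the tested members in the main values and under each of the 8 alternatives that keep both arrays, with 1 member at an unadjusted p under 0.05 in the main values. With normexp and loess, without the intensity-dependent step and without a filter on dim probes, it called 0 of all probes, so those alternatives bear nothing on the members. With normexp and loess the median moved to 0.13 in the large and 0.16 in the small subunit, and 35 members were higher on both arrays. Without the intensity-dependent step the small-subunit median was 0.0092. Without a filter on dim probes the large-subunit median was -0.0022, and with 1 probe a gene it was 0.0039. With 1 probe a gene, 11 genes of both subunits together were higher and 7 lower on both arrays. Leaving out each array in turn gave medians from -0.0028 to 0.0016 in the large and from 0.0031 to 0.032 in the small subunit, and counts over both arrays then have no value.

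Single genes changed direction under other dye normalizations. With normexp and loess the means were 0.094 for Rpl10a, 0.17 for Rpl13, 0.069 for Rpl41, 0.23 for Rplp0, 0.12 for Rps9 and 0.021 for Rpsa. Without the intensity-dependent step they were -0.052 for Rpl26, -0.037 for Rps18, -0.073 for Rps28 and 8.4e-05 for Rps9. The causes were not tested. Over all tested probes, the number limma called ran from 0 to 123. Each array pairs both genotypes, so the test of the ratios against 0 is already a paired one, and no further pairing was possible. The number of arrays limits the precision.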
